A study of Mus musculus with 4 samples.

Results

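39 genes that interferons are known to induce were followed in mouse liver after infusion of acetate, propionate, butyrate or saline into the cecum. They were listed by symbol, and a gene counted as measured where a probe set, a group of short array probes read out as 1 value, carried that symbol and no other in the platform annotation. Values were obtained in this way for 33 of the 39 genes, out of 18820 genes on the array. Irf1 had 2 probe sets, which were averaged, and the other 32 genes had 1 each. Gbp6, Igtp, Irgm2, Ifi47 and Tgtp1 lay only on probe sets that also carry other symbols and are given apart, and Ifi44 was not analysed here. Levels are log2 values after RMA, a method that corrects background and makes the distributions of the arrays alike. The level floor, the median over all genes of their mean level, was 5.55, and 31 of the 33 genes had mean levels at or above it. Mx1 and Isg15 lay below it in all 4 pools.

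The mice were male C57Bl/6J animals of 16 to 17 weeks kept for 6 weeks on a semi-synthetic diet with palm oil, and every mouse, controls included, had a permanent cecum catheter. The acid pools came from 6 mice given sodium [1-13C]acetate, 6 mice given sodium [2-13C]propionate and 4 mice given sodium [2,4-13C2]butyrate, each at 0.3 M and 2.4 mmol/h/kg for 6 h. The control pool came from 6 mice given phosphate-buffered saline for the same time. RNA was combined within each group and hybridised to 1 array, so no spread between mice can be given and no difference carries a p-value. In pooled whole liver, a change in the number of cells of a type and a change in RNA per cell cannot be told apart.

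Marker genes of other tissues differed between the pools. In the butyrate pool the 6 skeletal muscle markers were all lower than in the saline pool, by a median log2 ratio of -2.51, and the intestinal genes Muc2 (2.98) and Lypd8 (2.97) and the neutrophil granule gene Ngp (2.75) were higher. The 10 hepatocyte markers, among them Alb and Ttr, lay within 1.2-fold of saline in each acid pool. The part of these differences in the values that follow was not tested.

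Interferons are secreted proteins that cells release on sensing viruses, bacterial products or damage. They bind paired receptors whose Janus kinases phosphorylate STAT proteins. STAT2 and IRF9 belong to a complex that binds a promoter element called ISRE, and interferon gamma also acts through an element called GAS. The genes switched on encode antiviral proteins, GTPases that attack microbes inside cells, sensors of foreign nucleic acid and proteins that process antigens. In liver, hepatocytes, Kupffer cells (the resident macrophages) and endothelial cells all respond to interferon.

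In the butyrate pool most interferon-induced genes stood slightly higher than in the saline pool, while in the acetate and propionate pools their medians lay close to 0. With butyrate, 29 of the 33 genes, or 87.9%, lay above saline, against 48.7% of the 9410 genes that reach the level floor. The other 4 lay below. The 33 genes had a median log2 ratio of 0.26 and a range of -0.22 to 0.71. The median over the 9410 genes that reach the level floor was -0.0036. At least 1.2-fold higher were 18 of the 33 genes, or 54.5%, against 4.87% of the 9410 genes, and none was 1.2-fold lower, against 3.73%. At a rule of 1.5-fold, 2 genes were higher, Gbp8 and Rtp4, where the background was 0.755%, and none was lower, where it was 0.361%. The 1.2-fold limit lies at 0.26 on the log2 scale, and Ifit1 and Irf8 lay just above it and Xaf1 just below.

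With acetate, 16 of the 33 genes lay above saline and 17 below, and their median of -0.012 stood beside -0.011 for the genes at or above the floor. Usp18 alone was at least 1.5-fold higher (background 0.627%) and none was lower (background 0.51%). Usp18 and Gbp8 were at least 1.2-fold higher (background 4.65%) and Isg15, below the floor, was 1.2-fold lower (background 5.26%). With propionate, 19 genes lay above saline and 14 below, with a median of 0.019 against -0.034. None passed 1.5-fold in either direction, where the background was 0.701% higher and 0.404% lower. Usp18 was at least 1.2-fold higher (background 4.55%) and Mx2 1.2-fold lower (background 5.64%). For both acids the counts past 1.2-fold and 1.5-fold are 0 to 2 genes. The share above saline was 48.5% with acetate, against 46.2% of the genes that reach the floor, and 57.6% with propionate, against 39.2%. All 3 comparisons share the saline array.

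Ranking the 4 pools within each gene does not depend on the saline array alone. The butyrate pool was the highest of the 4 for 28 of the 33 genes, or 84.8%, against 30.3% of the genes at or above the floor, and it was the lowest for none, against 24.3%. The exceptions were Usp18, highest with acetate, Isg15, highest with propionate, and Mx1, Ifit2 and Ifi35, highest with saline.

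**Figure D1:**
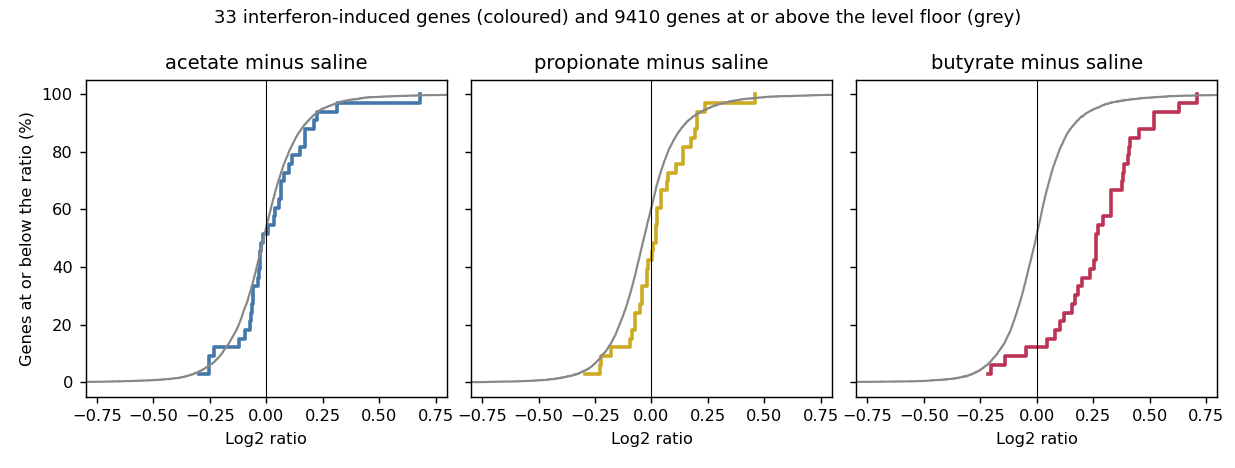
Cumulative share of genes (%, vertical axis) at or below each log2 ratio to the saline pool (horizontal axis), for acetate, propionate and butyrate, with 33 interferon-induced genes in colour and 9410 genes that reach the level floor in grey. The horizontal axis is limited to -0.8 to 0.8. The coloured curve lies near the grey one with acetate (median -0.012) and propionate (0.019) and to the right of it with butyrate (0.26).

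**Figure D2:**
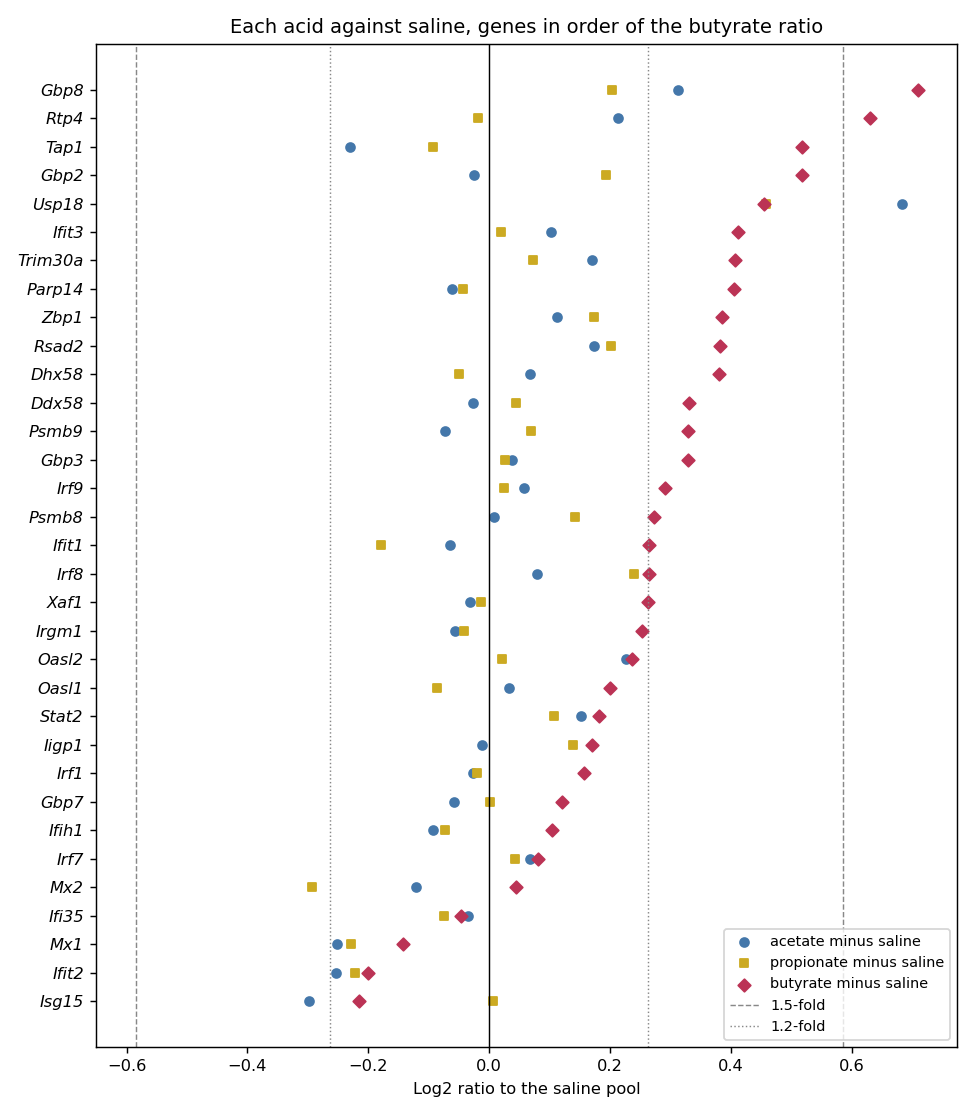
Log2 ratio of each interferon-induced gene to the saline pool (horizontal axis) for acetate, propionate and butyrate, 1 array each, with genes ordered by the butyrate ratio and lines at 1.2-fold and 1.5-fold. Gbp8 (0.71) and Rtp4 (0.63) pass 1.5-fold with butyrate and Usp18 (0.68) with acetate.

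Because interferon acts through both elements, their letters were looked for in the RefSeq promoter windows of GRCm38.p6, which run from 250 bases before an annotated start to 50 after it. Windows were found for 29 of the 39 genes, and not for Gbp6, Gbp8, Iigp1, Mx1, Mx2, Usp18, Rtp4, Parp14, Dhx58 and Zbp1. The ISRE was searched as GAAANNGAAA on both strands and the GAS as TTCNNNGAA, which reads the same on both strands. ISRE letters were present in 15 of the 29 genes, against 3.99% of 27025 genes in the table, and GAS letters in 9 of the 29, against 9.55%. Both occurred in 4 of the 29, against 0.540%. Per window the shares were 45.7% of 35 member windows against 3.44% of 32851 for the ISRE, and 25.7% against 8.30% for the GAS.

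5 windows are shown because they span the range of the butyrate response among genes with a window, with ISRE and GAS letters in capitals, read 5′ to 3′ on the gene's strand. Gbp2 (chr3:142620413-142620712, plus strand) and Ifit3 (chr19:34583279-34583578, plus strand) stood high with butyrate, Irgm1 (chr11:48871371-48871670, minus strand) in between, and Isg15 (chr4:156200769-156201068, minus strand) low with 3 overlapping matches. Tap1 (chr17:34187306-34187605, plus strand) had one of the highest ratios and holds neither set of letters, which says only that they are not in this window. The Tap1 window shares 275 bases with that of Psmb9, which is transcribed the other way.
Gbp2: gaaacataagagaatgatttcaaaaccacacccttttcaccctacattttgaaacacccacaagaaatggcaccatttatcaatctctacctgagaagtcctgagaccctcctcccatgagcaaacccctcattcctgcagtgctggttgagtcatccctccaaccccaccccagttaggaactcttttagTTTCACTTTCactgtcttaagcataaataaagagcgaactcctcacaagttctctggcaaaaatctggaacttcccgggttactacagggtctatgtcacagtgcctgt
Irgm1: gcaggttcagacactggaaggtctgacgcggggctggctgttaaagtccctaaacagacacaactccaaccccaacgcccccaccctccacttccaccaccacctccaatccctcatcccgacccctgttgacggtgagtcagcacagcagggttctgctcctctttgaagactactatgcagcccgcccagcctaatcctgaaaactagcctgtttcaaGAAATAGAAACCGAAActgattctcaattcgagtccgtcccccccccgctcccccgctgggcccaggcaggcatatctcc
Ifit3: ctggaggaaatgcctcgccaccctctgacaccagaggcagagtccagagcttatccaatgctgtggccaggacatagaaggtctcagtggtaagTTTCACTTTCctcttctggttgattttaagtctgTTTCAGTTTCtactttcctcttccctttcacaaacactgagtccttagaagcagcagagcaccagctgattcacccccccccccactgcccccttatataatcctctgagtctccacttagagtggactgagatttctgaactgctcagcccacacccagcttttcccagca
Isg15: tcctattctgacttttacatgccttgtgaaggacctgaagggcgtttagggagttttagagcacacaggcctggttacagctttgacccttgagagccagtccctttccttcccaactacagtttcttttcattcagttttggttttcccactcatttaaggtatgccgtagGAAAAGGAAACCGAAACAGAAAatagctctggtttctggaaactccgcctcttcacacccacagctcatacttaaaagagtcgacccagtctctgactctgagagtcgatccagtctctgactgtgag
Tap1: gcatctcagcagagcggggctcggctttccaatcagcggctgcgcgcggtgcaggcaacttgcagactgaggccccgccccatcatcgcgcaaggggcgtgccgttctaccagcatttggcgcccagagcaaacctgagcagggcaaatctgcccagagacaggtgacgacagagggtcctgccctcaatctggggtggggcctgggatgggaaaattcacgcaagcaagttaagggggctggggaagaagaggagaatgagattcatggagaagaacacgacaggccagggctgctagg

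Igtp, Irgm2 and Tgtp1, GTPase genes on chromosome 11, had GAS letters followed after 2 bases by ISRE letters. In this order and spacing, with the ISRE letters on the gene's strand, the pair stood in 5 of the 32851 windows. The other 2 were those of Tgtp2 and Gm12185, also on chromosome 11. The spacing was read from the listed genes before counting, so the count is a description and no test. The stretches are shown with 10 bases on either side, for Igtp (chr11:58199501-58199541, plus strand), Irgm2 (chr11:58214892-58214932, plus strand) and Tgtp1 (chr11:48992304-48992344, minus strand).
Igtp: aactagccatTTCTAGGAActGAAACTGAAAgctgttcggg
Irgm2: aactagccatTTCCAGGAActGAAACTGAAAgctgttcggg
Tgtp1: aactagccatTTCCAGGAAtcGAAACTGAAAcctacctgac

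Among the 24 measured genes with a window, the butyrate log2 ratio had a median of 0.30 in the 12 with ISRE letters and 0.25 in the 12 without. It was 0.14 in the 6 with GAS letters and 0.28 in the 18 without. These medians are a description of sequence beside 1 array, and a match is not evidence of binding.

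**Figure D3:**
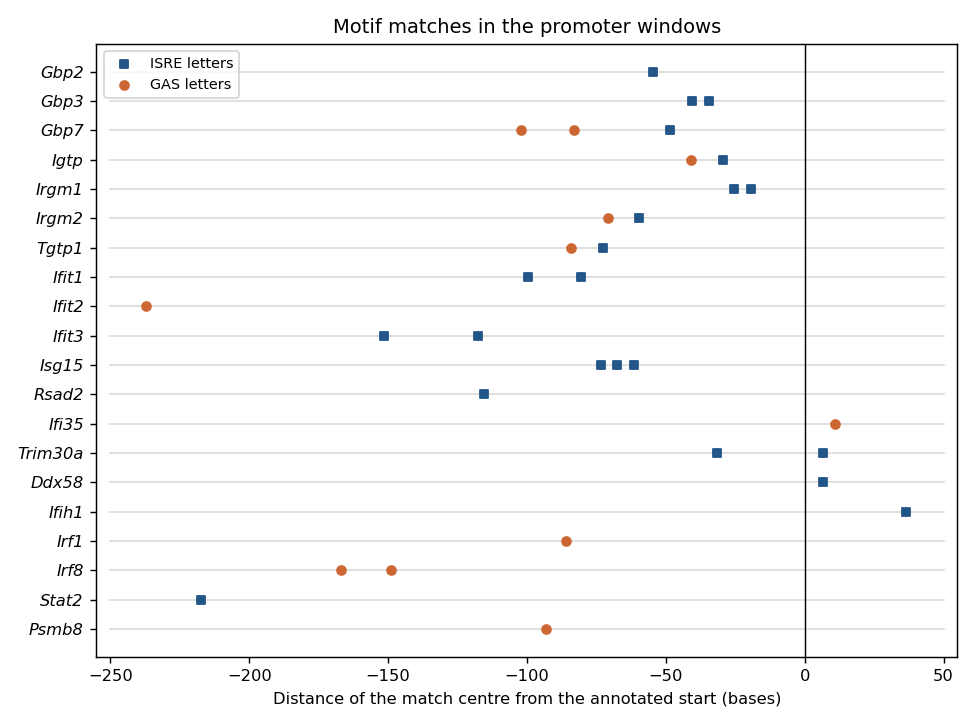
Distance in bases of each motif match from the annotated start (horizontal axis) for the members whose promoter window, drawn as a grey line, holds ISRE letters (squares) or GAS letters (circles). Isg15 has 3 matches between -78 and -57, and in Igtp, Irgm2 and Tgtp1 a GAS match lies next to an ISRE match.

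The transcription factors of the response differed little. All 5 lay above saline with butyrate (background 48.7%), with a median log2 ratio of 0.18, and Irf9 and Irf8 passed 1.2-fold (background 4.87%). Irf9, the DNA-binding subunit of the complex with STAT2 (probe set 10415319), had levels of 8.72, 8.68 and 8.95 in the acetate, propionate and butyrate pools, against 8.66 in the saline pool. The butyrate pool was therefore 1.22-fold above saline, while the acetate and propionate pools stood at log2 ratios of 0.06 and 0.02. Its partner Stat2 had ratios of 0.15, 0.11 and 0.18 with acetate, propionate and butyrate, so the 3 acid pools lay close together. Irf8, which also directs macrophage development, had 0.08, 0.24 and 0.26, with propionate near butyrate. Irf7, the factor that amplifies type I interferon production, had 0.07, 0.04 and 0.08. Irf1, induced early by interferon gamma, had -0.03, -0.02 and 0.16.

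Among the sensors of nucleic acid, 3 of 4 passed 1.2-fold with butyrate (background 4.87%), and the median was 0.35. Zbp1, a sensor that triggers cell death, had levels of 6.998, 7.06 and 7.27 in the acetate, propionate and butyrate pools, against 6.89 in the saline pool. That placed butyrate 1.31-fold above saline, with log2 ratios of 0.11 and 0.17 for acetate and propionate. Dhx58, a regulator of the RNA helicase sensors, had levels of 6.81, 6.70 and 7.13 in the acid pools, against 6.75 with saline, with butyrate the highest (0.38). Ddx58, the RNA sensor RIG-I, had ratios of -0.03, 0.04 and 0.33. Ifih1, the sensor of long double-stranded RNA also called MDA5, had -0.09, -0.07 and 0.10 and did not pass 1.2-fold.

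ISG15 is a ubiquitin-like protein attached to other proteins, and Usp18 is the protease that removes it and also dampens signalling from the type I receptor. Usp18 was one of the 5 genes whose highest pool was not butyrate, although it lay above saline there. Its levels were 8.41, 8.18 and 8.18 in the acetate, propionate and butyrate pools, against 7.73 in the saline pool. All 3 acid pools stood above saline, by log2 ratios of 0.68, 0.46 and 0.45, and acetate was the highest. These 3 ratios rest on the same saline value. Against the mean of the other 3 pools, Usp18 stood at 0.38 with acetate, 0.08 with propionate and 0.07 with butyrate. Isg15 had levels of 4.08, 4.39 and 4.16 in the acid pools, against 4.38 with saline, all below the floor, and its ratios of -0.30, 0.01 and -0.22 are ratios between such low values.

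Of the IFIT proteins, Ifit1 binds viral RNA that lacks host cap marks, and the 3 genes lie close together on chromosome 19. Ifit3 had levels of 7.83, 7.75 and 8.14 in the acetate, propionate and butyrate pools, against 7.73 in the saline pool. The butyrate pool was the highest, at 1.33-fold over saline. Ifit1 had ratios of -0.07, -0.18 and 0.26. Ifit2 had levels of 5.77, 5.80 and 5.83 in the acid pools, against 6.03 with saline, and its ratios of -0.25, -0.22 and -0.20 did not pass 1.2-fold. Neighbouring members of the family thus differed in the sign of the butyrate ratio.

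The Mx proteins are dynamin-like antiviral GTPases, and C57BL/6 mice carry a defective Mx1 gene. Mx2 had levels of 6.04, 5.86 and 6.20 in the acetate, propionate and butyrate pools, against 6.16 in the saline pool, with propionate the lowest (-0.29) and butyrate close to saline (0.04). Mx1 lay between 3.96 and 4.22, below the floor throughout. Of the OAS-like genes, relatives of the synthetases that activate RNase L, Oasl2 had levels of 7.46, 7.26 and 7.47 in the acid pools, against 7.24 with saline, so acetate and butyrate were alike (0.23 and 0.24). Oasl1, which restrains translation of Irf7, had ratios of 0.03, -0.09 and 0.20. None of these 4 genes passed 1.2-fold with butyrate (background 4.87% higher and 3.73% lower).

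Of the 6 other effectors, 4 passed 1.2-fold with butyrate (background 4.87%), and the median of the 6 was 0.39. Rtp4, a protein that restrains type I interferon signalling in mice, had levels of 7.53, 7.30 and 7.95 in the acetate, propionate and butyrate pools, against 7.32 in the saline pool. The butyrate pool was 1.55-fold above saline, acetate lay between and propionate at the saline level. Parp14, an ADP-ribosyltransferase, had levels of 7.71, 7.72 and 8.17 in the acid pools, against 7.77 with saline, with butyrate at 1.32-fold and the other 3 close together. Trim30a, a TRIM family protein, had ratios of 0.17, 0.07 and 0.41. Rsad2, or viperin, which makes a chain-terminating nucleotide, had 0.17, 0.20 and 0.38. Xaf1, a pro-apoptotic partner of XIAP, had -0.03, -0.01 and 0.26 and was just short of 1.2-fold. Ifi35 was level in all pools, between 7.72 and 7.79.

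Guanylate-binding proteins are GTPases that coat and break up the vacuoles of intracellular microbes and respond strongly to interferon gamma. The 4 measured genes all lay above saline with butyrate (background 48.7%), with a median of 0.42, and 3 passed 1.2-fold (background 4.87%). Gbp8 had levels of 6.19, 6.08 and 6.58 in the acetate, propionate and butyrate pools, against 5.87 in the saline pool. The saline pool was the lowest of the 4, and the fold over saline was 1.64 with butyrate and 1.24 with acetate. Gbp2 had levels of 5.82, 6.04 and 6.37 in the acid pools, against 5.85 with saline, with acetate at the saline level, propionate between and butyrate 1.43-fold higher. Gbp3 had ratios of 0.04, 0.03 and 0.33, and Gbp7 had -0.06, 0.00 and 0.12. Probes can cross-hybridise between members of this family, so a value may hold signal of a close relative. Probe sets shared by Gbp6 with Gbp11 and Gbp10, and by Gbp6 with Gbp11, had butyrate ratios of 0.41 and 0.30.

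Immunity-related GTPases act beside the guanylate-binding proteins on such vacuoles. Irgm1, a regulatory member, had levels of 8.93, 8.95 and 9.24 in the acetate, propionate and butyrate pools, against 8.99 in the saline pool. Butyrate alone stood apart, at 1.19-fold, under the 1.2-fold rule. Iigp1, an effector member, had ratios of -0.01, 0.14 and 0.17. The other 4 listed genes of the family were read only on shared probe sets. The set of Irgm2 and Igtp had a butyrate ratio of 0.38, the 2 sets of Tgtp1 and Tgtp2 had 0.59 and 0.58, and the set of Ifi47 and Olfr56 had 0.68. In all 6 shared sets the butyrate pool was the highest of the 4, as in 30.3% of the genes at or above the floor. With acetate and propionate the ratios of the 6 sets ran from -0.37 to 0.08.

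The 3 antigen-processing genes lie together on chromosome 17 and all passed 1.2-fold with butyrate (background 4.87%). Tap1, a subunit of the transporter that carries peptides into the endoplasmic reticulum for MHC class I, had levels of 6.93, 7.06 and 7.67 in the acetate, propionate and butyrate pools, against 7.16 in the saline pool. Acetate was the lowest (-0.23) and butyrate the highest, 1.43-fold above saline. Psmb9 and Psmb8, subunits of the immunoproteasome that cuts such peptides, had butyrate ratios of 0.33 and 0.27. With acetate and propionate Psmb9 had -0.07 and 0.07, and Psmb8 had 0.01 and 0.14.

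**Figure D4:**
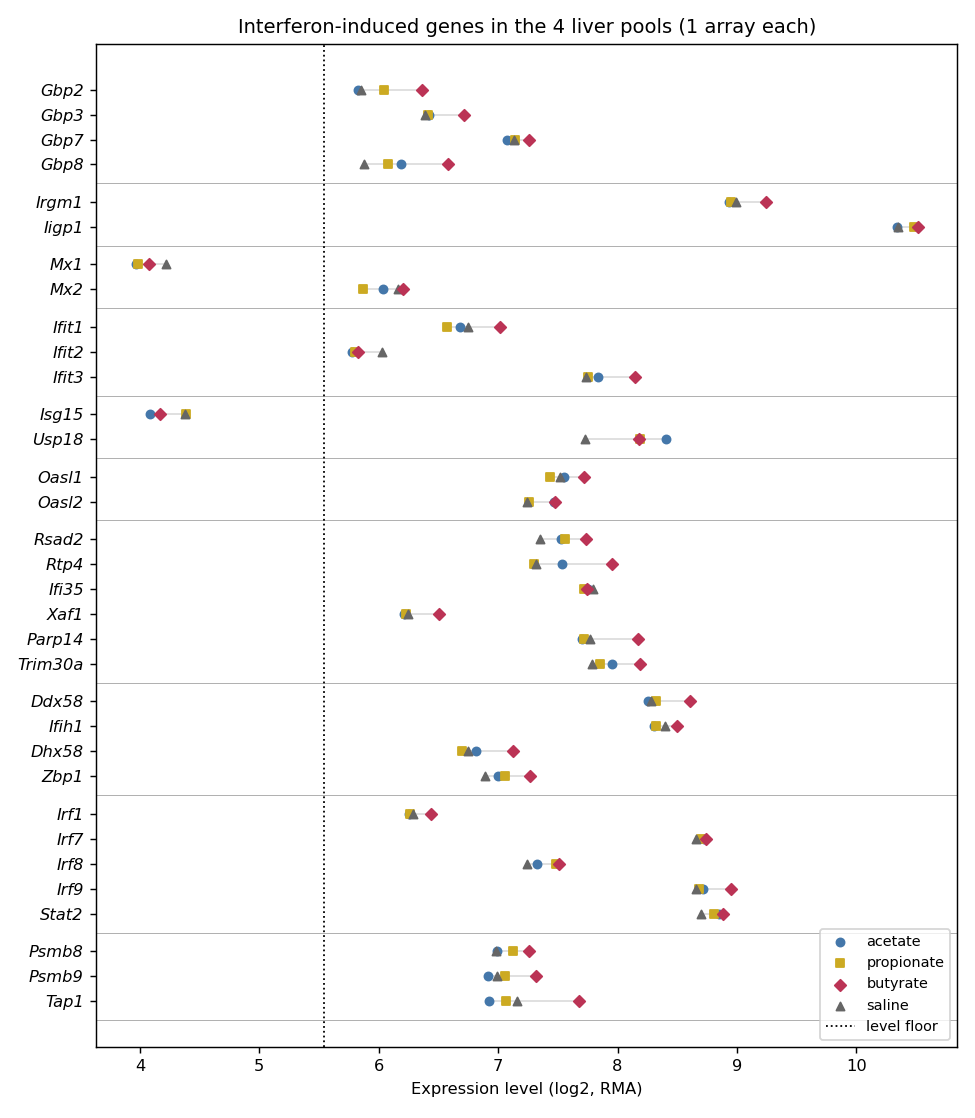
Level of each interferon-induced gene (log2 RMA value, horizontal axis) in the acetate, propionate, butyrate and saline pools, 1 array each, by family or role, with the level floor of 5.55 dotted. The butyrate pool is the rightmost point for 28 of the 33 genes, and Usp18 has its rightmost point with acetate.

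The acids lengthen by a carbon from acetate through propionate to butyrate and were infused at the same molar rate and time, so their pools were compared in 3 pairs. With 1 array per acid no interval of a difference can be given. Butyrate stood above acetate in 31 of 33 genes, or 93.9%, against 52.4% of the genes at or above the floor, with a median of 0.23 against 0.0082. Tap1 was at least 1.5-fold higher (0.75 on the log2 scale, background 1.05%) and none was lower (background 0.85%). At 1.2-fold, 15 genes were higher (background 7.28%) and none was lower (background 6.25%). Butyrate also stood above propionate in 31 of 33 genes, where 59.6% of the background genes did, with a median of 0.26 against 0.034. Rtp4 (0.65) and Tap1 (0.61) were at least 1.5-fold higher (background 0.351%) and none was lower (background 0.606%). At 1.2-fold, 16 were higher (background 6.59%) and none was lower (background 4.1%). These 2 comparisons share the butyrate array. After cyclic loess, a further smoothing of the arrays against each other, Tap1 stood at 0.57 over propionate, under 1.5-fold.

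Propionate stood above acetate in 18 genes, or 54.5% against 41.7%, and below in 15, with a median of 0.016 against -0.023. None passed 1.5-fold, where the background was 0.414% higher and 0.138% lower. Isg15, below the floor in both pools, was 1.2-fold higher (0.30, background 3.24%) and none was 1.2-fold lower (background 3.67%).

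The rest of the pathway was read from lists chosen with earlier results of these data known. Of 21 interferon genes, 14 were measured, and all except Ifnl2 had mean levels below the floor. Ifng, which encodes interferon gamma, had levels of 3.48, 3.62 and 3.71 in the acetate, propionate and butyrate pools, against 3.52 in the saline pool. Values at that height show no presence or absence of the transcript. Ifnab stood at 0.61, 0.72 and 0.54, likewise below the floor, and Ifnl2 at 0.20, 0.28 and 0.05. With butyrate 7 of the 14 lay above saline and 7 below, with a median of 0.023, and 49% of all 18820 genes lay above.

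Of 15 measured receptors, kinases and inhibitors of the pathway, 2 were at least 1.2-fold higher with butyrate (background 4.87%). They were Il10rb (0.36) and Ifngr1 (0.26, just above the limit), which are receptor subunits. Socs1, an inhibitor of Janus kinases whose level lay below the floor, was 1.2-fold lower (-0.31, background 3.73%). The list had medians of 0.0022, -0.026 and 0.054 with acetate, propionate and butyrate. Among 12 genes that act upstream of interferon production, the medians with acetate, propionate and butyrate were -0.19, -0.11 and 0.0087, and Ikbke, a kinase that activates IRF3, had ratios of -0.46, -0.24 and 0.12. Tlr3, a receptor for double-stranded RNA, had -0.20, -0.16 and 0.28.

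A list of 49 other interferon-induced genes, 40 of them measured and none among the 39, had a butyrate median of 0.20. Of the 40, 31 had mean levels at or above the floor. Above saline with butyrate were 33 of the 40, or 82.5%, against 48.7% of the 9410 genes that reach the floor. At least 1.2-fold higher were 13 of the 40, or 32.5%, against 4.87%, and none was lower, against 3.73%. Cxcl9 and Cxcl10, chemokines that draw T cells, had the largest ratios. Cxcl9 had levels of 8.36, 8.76 and 9.11 in the acetate, propionate and butyrate pools, against 8.00 in the saline pool, so each acid pool stood above saline. Cxcl10 had 6.27, 5.92 and 6.84 in the acid pools, against 5.94 with saline, with propionate at the saline level. With acetate and propionate the list's medians were 0.059 and -0.0027. The 12 measured partners of antigen presentation, among them H2-K1 and B2m, had a butyrate median of 0.050. None of the 12 was 1.2-fold higher (background 4.87%) or lower (background 3.73%).

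Markers of Kupffer cells and of neutrophils and monocytes stood higher in the butyrate pool. All 13 Kupffer cell markers lay above saline with butyrate, against 48.7% of the genes that reach the level floor. Of these, 11, or 84.6%, passed 1.2-fold, against 4.87% of the genes that reach the level floor. The median of the 13 markers was 0.57, and Marco (1.40), a scavenger receptor, and Adgre1 (0.76), which encodes F4/80, had the largest ratios. Their summed linear level was 7157 in the acetate pool, 8700.0 in the propionate pool, 10180 in the butyrate pool and 7064 in the saline pool. The summed level of the 33 interferon-induced genes was 7208, 7253 and 8335 in the acid pools, against 6976 with saline. In the propionate pool 11 of 13 Kupffer cell markers, or 84.6%, lay above saline, with a median of 0.29. Of the interferon-induced genes 57.6% did, with a median of 0.019. Among the genes that reach the level floor these values were 39.2% and -0.034. All 10 measured neutrophil and monocyte markers lay above saline with butyrate (median 0.60, background 48.7%), 6 of them with mean levels below the floor. With acetate 2 of the 10 lay above saline (background 46.2%) and with propionate 4 (background 39.2%), with medians of -0.39 and -0.18. The medians of butyrate over acetate and over propionate were 1.09 and 0.60. The summed level of the 10 was 6405, 6617 and 8048 in the acid pools, against 7477 with saline. Lcn2 made up most of these sums, with log2 levels of 12.81 with butyrate and 12.80 with saline. The highest value of any other marker in this list was 8.54, for Ngp with butyrate.

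Most lymphoid markers had low levels. The 8 T cell markers all had mean levels below the floor, and with butyrate their median was 0.11 and 2 were at least 1.2-fold higher. Of the 8 natural killer cell markers only Nkg7 (0.50 with butyrate) reached the floor. Their butyrate median was 0.19, and 4 were at least 1.2-fold higher. With acetate the median was 0.24, with 4 at least 1.2-fold higher and 2 lower, and with propionate 0.10, with 1 higher. The share of genes at least 1.2-fold higher with butyrate was 4.87% of those that reach the floor and 6.4% of all 18820. With acetate these shares were 4.65% and 6.73%. The 4 measured B cell markers had a butyrate median of 0.11, with 1 at least 1.2-fold higher, and the 6 dendritic cell markers 0.090, with 0. The 8 sinusoidal endothelial markers had a butyrate median of 0.068, and the hepatocyte markers 0.029. Plasmacytoid dendritic cell markers, of a cell known as a strong source of type I interferon, had a butyrate median of -0.08 over 4 genes. Cox6a2, the 1 that reached the floor, stood at -0.37. Siglech, Pacsin1 and Ccr9, below the floor in all pools, had -0.20, 0.05 and 0.17, so the sign of the median differs between these markers. Stellate cell markers had medians of 0.41, 0.45 and 0.13 with acetate, propionate and butyrate, and all 5 pancreatic acinus markers lay below saline in each. The part of these marker differences in the interferon-induced genes was not tested.

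**Figure D5:**
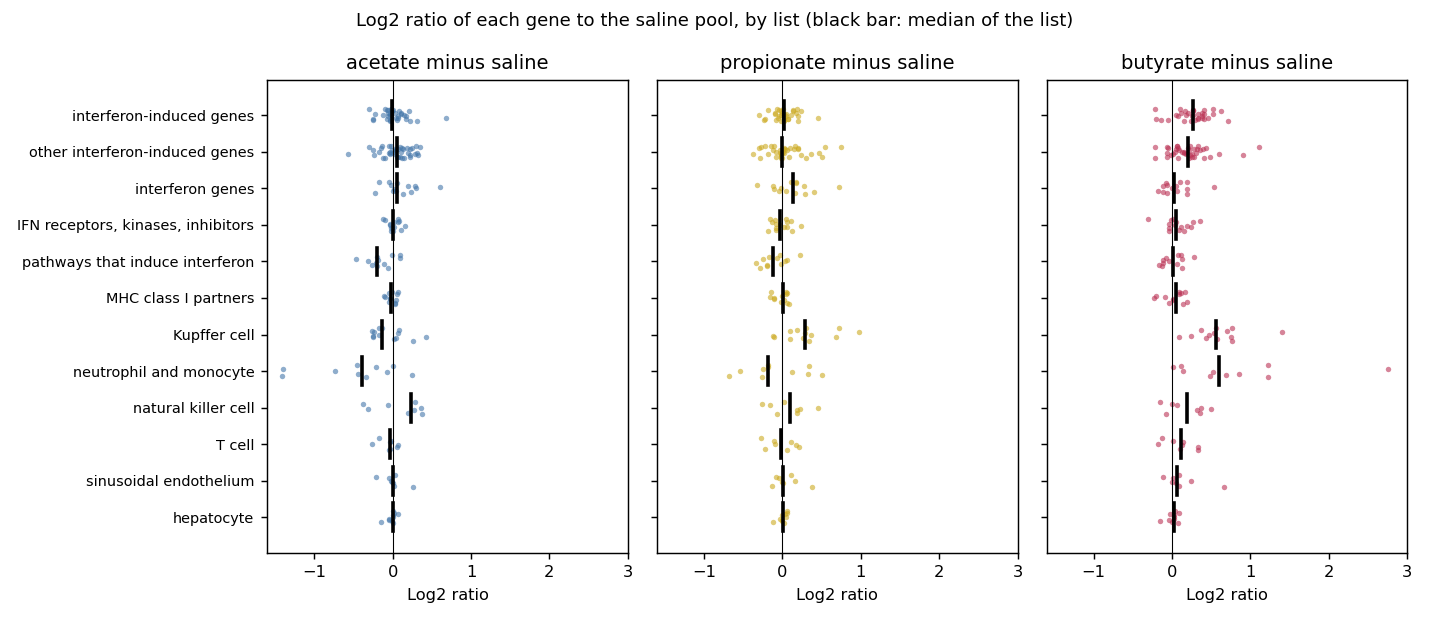
Log2 ratio to the saline pool (horizontal axis) of each gene in the interferon lists and the cell marker lists, for acetate, propionate and butyrate, with black bars at list medians. With butyrate the medians of the 33 interferon-induced genes (0.26) and of Kupffer cell markers (0.57) lie right of 0. With propionate those of the same lists are 0.019 and 0.29, and that of the genes that reach the level floor, not drawn, is -0.034.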

How the data were processed

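Liver RNA of 22 mice was measured as 4 pools on 4 biotin-labelled whole-transcript arrays. The authors deposited 1 log2 value per probe set and array, made with RMA per the submitters' processing notes. The version and settings of RMA and the genome build were not given in the sources used here. Of 35556 probe sets, 21218 had 1 gene symbol in the platform annotation used, 1881 had several and 12457 had none there. Probe sets of 1 symbol were averaged with pandas 2.3.3 in Python 3.11.15, which gave 18820 genes.

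The members and gene lists were chosen with earlier results of these data known. A comparison is the log2 ratio of 2 arrays. A gene counts as higher or lower at 1.5-fold, or at 1.2-fold where so stated, and the background is the share of the 9410 genes that reach the level floor that pass the same rule. The 1.2-fold rule was listed as an alternative and is given beside the other. Every measured member is named, and values in all pools are given for those past 1.5-fold and for the largest ratio in each family. The 33 measured genes were counted whatever their level. The number of arrays, 1 per group, limits the precision, and no test was possible. Alternatives included cyclic loess in limma 3.58.1 (R 4.3.3). The scripts were tested on simulated data with shifts larger than the 1.5-fold rule, which does not test the 1.2-fold rule. Promoters come from RefSeq, GRCm38.p6.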

Additional observations from a re-analysis of the deposited data

Results flagged for a closer look

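Probe sets with several symbols entered no count above, and 2 of them stood at least 1.5-fold higher in the butyrate pool than in the saline pool. The probe set shared by Ifi47 and Olfr56, an immunity-related GTPase gene and an olfactory receptor gene, had levels of 6.26 with butyrate and 5.59 with saline, a log2 ratio of 0.68. A probe set shared by Tgtp1 and Tgtp2, near-identical GTPase genes, had 7.15 with butyrate and 6.56 with saline, a ratio of 0.59. The second probe set of that pair had 7.49 and 6.91, a ratio of 0.58, just under 1.5-fold. Which of the symbols gave the signal was not tested.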

How the results depend on the processing

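No paired analysis was possible because each group is 1 pooled array. The butyrate median of the interferon-induced genes lay between 0.256 and 0.282 under the 6 alternatives run. Of the 99 gene ratios to saline, 99 moved by at most 0.05 or kept their sign and stayed within 1.5 times after cyclic loess. With the probe set of the highest mean level for each gene 98 did, and the exception was a ratio of Irf1. That alternative could change only the ratios of Irf1, as the other 32 genes have 1 probe set each. No ratio past 1.5-fold changed sign under either. A small ratio did, that of Rtp4 with propionate, from -0.018 to 0.024 after cyclic loess. The counts depend on the fold rule. Higher at 1.2-fold were 2, 1 and 18 genes with acetate, propionate and butyrate, and lower were 1, 1 and 0. Between acids, 15 were higher over acetate and 16 over propionate with butyrate, and 1 with propionate over acetate. At 2-fold there were 0 in each comparison. The 1.2-fold counts between acids also changed after cyclic loess. With butyrate they were then 13 over acetate and 11 over propionate, while the count over saline was 19. Against the mean of the other 3 pools, 0 genes were 1.5-fold higher with acetate and 1 with butyrate, which was Tap1 (0.63) in place of Gbp8 (0.54) and Rtp4 (0.56), and the medians with acetate and propionate were -0.080 and -0.077. Butyrate over propionate gave 1 gene at 1.5-fold, not 2, after cyclic loess and after centring on the median ratio of genes at or above the floor. With the shared probe sets of Gbp6, Ifi47 and Tgtp1 added, an alternative chosen after seeing the data, 4 genes were 1.5-fold higher with butyrate over saline and 3 over acetate. Pooling RNA before the arrays removed the spread between mice, so what a single liver added to a pool was not measured, and in the butyrate pool each of 4 livers weighed more than each of 6 in the others.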

Other observations

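The 2 probe sets of Irf1 stood at different heights. One had levels of 7.81, 7.90 and 8.14 in the acetate, propionate and butyrate pools, against 7.95 in the saline pool. The other had 4.70, 4.63 and 4.74, against 4.61, all below the level floor. With butyrate their ratios were 0.19 and 0.12, and with acetate -0.14 and 0.09, so the probe sets disagreed in sign with acetate.

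Among other interferon-induced genes, Ddx60, a helicase that aids RNA sensing, had levels of 5.38, 5.56 and 6.12 in the acetate, propionate and butyrate pools, against 5.94 with saline. Cd274, which encodes the checkpoint ligand PD-L1, had ratios of 0.07, 0.50 and 0.48, with mean level below the floor, and Ifi203, of the family that senses DNA, had 0.14, 0.30 and 0.41.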
